A study of Arabidopsis thaliana with 8 samples.

Results

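Accessible chromatin of the Arabidopsis recombinant inbred line RIL50 was compared between generation 10 and generation 3 of selfing. RIL50 is an inbred mosaic of the accessions Ler and Cvi, and the series text describes it as one of a pair of lines that contrast in how fast CG methylation changes spontaneously. ATAC-seq was used, in which the Tn5 transposase inserts adapters into open DNA of nuclei, here from shoots of seedlings 7 to 9 days old. The 4 RIL50 libraries are lineage 1 at generation 3, lineage 2 at generation 3, lineage 1 at generation 10 and lineage 2 at generation 10, all untreated and of the same genotype. The other 4 of the 8 libraries of the series are from RIL149, 2 lineages at each generation. Both generation 3 libraries come from sublineage 1 and both generation 10 libraries from sublineage 2, so the later plants may stem from a branch other than the one sampled earlier, and generation and sublineage cannot be told apart. The labels give 200 mg of shoots as input but not the number of plants in a library. The p-values therefore measure only the spread between these libraries, which the tests of single regions pool in part over all regions. Peaks of the 4 RIL50 lists on the 5 nuclear chromosomes were merged where they overlapped by at least 1 bp. This gave 21765 regions, against 24103 when the lists of all 8 libraries were merged. A region was listed in a library when that library had a peak in it.

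Open chromatin in plants lies mostly at the ends of genes, where transcription factors bind and nucleosomes are depleted, and to a lesser extent in distal elements. DNA methylation and linker histones keep transposons and pericentromeric heterochromatin closed. CG methylation is copied after each replication by MET1 with the help of VIM proteins and the remodeller DDM1. Errors in this copying are inherited through selfing, and lines kept by single-seed descent collect them over generations.

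Background pileup, used here as a stand-in for depth, was not aligned with generation. The background pileup, recovered from the fold and p columns as the background level most frequent among the peaks, in fragments over a base, was 8.71 in lineage 1 and 25.3 in lineage 2 at generation 3, and 20.5 in lineage 1 and 8.88 in lineage 2 at generation 10. Each generation therefore held 1 library of low and 1 of high background pileup, called shallow and deep below. The lists also hold peaks on the organelle genomes, so the pileup need not follow nuclear depth alone. The fold enrichment of a peak is the authors' ratio of its summit to the local background. The shallow libraries had the higher median folds, 5.16 and 5.06, and the deep libraries 4.07 and 4.05. A region that is not listed had no peak that passed peak calling in that library, which can depend on depth, and need not have been closed. In bulk tissue a change per nucleus cannot be told apart from a change in the share of a cell type.

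The 4 libraries held similar amounts of accessible chromatin, and lineage 2 at generation 10 stood below the rest. The lists held 19193 and 18447 nuclear peaks at generation 3 (lineages 1 and 2) and 18896 and 16952 at generation 10. The mean was 18820 ± 528 at generation 3 and 17924 ± 1375 at generation 10 (SD, n = 2 each; two-sided exact permutation test, p = 0.667, where the smallest possible p is 0.333). Peaks covered 7.06 and 7.16 Mb at generation 3, and 7.46 and 5.56 Mb at generation 10 (exact permutation p = 1). Median peak width was 296 and 299 bp at generation 3, and 311 and 271 bp at generation 10 (exact permutation p = 1). Lineage 2 at generation 10 thus had the fewest peaks, the least covered length and the narrowest peaks, while lineage 1 at generation 10 had the most covered length and the widest. The generations overlapped in covered length and width. Without lineage 2 at generation 10, the difference in peak number between generation 10 and generation 3 went from -896 to 76.

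Most of the accessible landscape was listed at both generations. A peak was present in all 4 libraries in 14051 regions (64.6%), in 3 libraries in 2466, in 2 libraries in 2175 and in 1 library in 3073. The most frequent incomplete pattern was presence in every library except lineage 2 at generation 10, with 1461 regions (6.71%). The Jaccard index, which divides the bases covered in both libraries by those covered in either, was 74.4% between the generation 3 libraries and 66.2% between the generation 10 libraries. It was 72.3% between the lineage 1 libraries and 65.9% between the lineage 2 libraries. The remaining pairs gave 73.4% for lineage 2 at generation 3 with lineage 1 at generation 10, and 66.1% for the shallow libraries. All 3 pairs with lineage 2 at generation 10 lay between 65.9% and 66.2%, and the 3 pairs without it lay between 72.3% and 74.4%.

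**Figure D1:**
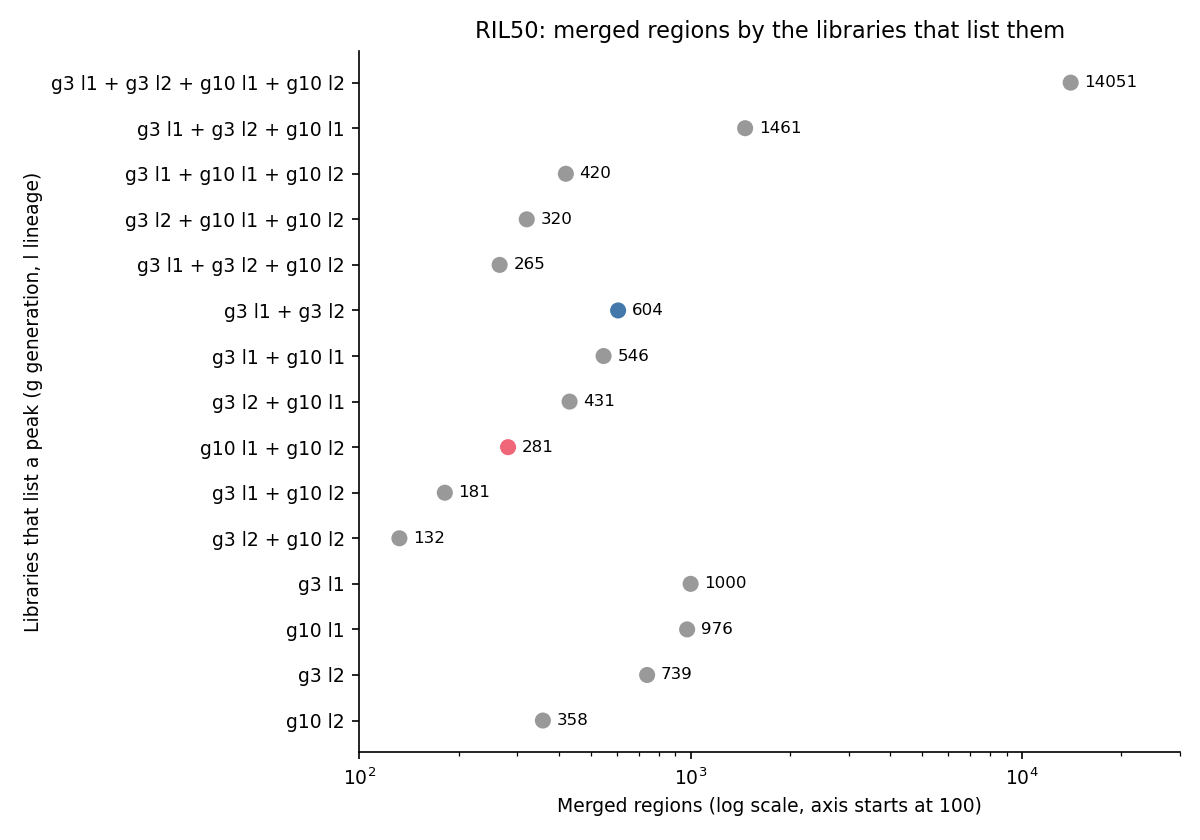
Number of merged RIL50 regions (log scale that starts at 100) for each combination of libraries that list a peak, 1 point each, with g for generation and l for lineage. The 281 regions listed only at generation 10 are in red and the 604 listed only at generation 3 in blue; 14051 regions are listed in all 4 libraries.

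Regions listed in both libraries of one generation and in neither of the other made up a small part of the landscape. Of the 21765 regions, 281 (1.29%) were listed only at generation 10 and 604 (2.78%) only at generation 3. For comparison, 546 were listed only in lineage 1 and 132 only in lineage 2. Presence or absence of a single region cannot pass an exact test with 2 libraries against 2, so these counts are descriptions. The balance turned without the library with the fewest peaks. Without lineage 2 at generation 10, which relaxes the rule, 1257 regions were listed only at generation 10 and 869 only at generation 3. Without lineage 1 at generation 10 the counts were 639 and 2065, without lineage 1 at generation 3 they were 701 and 1343, and without lineage 2 at generation 3 they were 601 and 1604. With the 16952 strongest peaks of each library, 350 regions were listed only at generation 10 and 411 only at generation 3.

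Followed within each lineage, most differences between generations were not shared by the other lineage. In lineage 1, 2008 regions were listed at generation 10 and not at generation 3, and in lineage 2 there were 1240 such regions. The 281 found in both lineages were 14.0% of the first and 22.7% of the second. In the other direction, 2050 regions of lineage 1 and 3235 of lineage 2 were listed at generation 3 and not at generation 10. The 604 found in both were 29.5% and 18.7% of these. Another 431 regions were listed at generation 10 but not 3 in lineage 1 and the reverse in lineage 2, which is presence in the deep libraries alone. For 181 regions, presence in the shallow libraries alone, the directions were exchanged.

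Generation-specific regions were weak and narrow compared with regions of all 4 libraries. Their median fold at generation 10 only was 2.42 in lineage 1 and 2.93 in lineage 2, and at generation 3 only it was 3.09 in lineage 1 and 2.40 in lineage 2. In regions of all 4 libraries the medians ran from 4.91 to 6.49. A fold of at least 4 in both libraries was reached by 2 of the 281 regions and by 15 of the 604. The median region was 209 bp wide for generation 10 only, 234 bp for generation 3 only and 432 bp for regions of all 4 libraries. Since absence from 2 libraries is part of the rule, these folds are given as a description only.

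Among the regions listed only at generation 10, the first 12 with a named gene had mean folds of 3.35 to 4.30. The region at PRA1.B2, of the prenylated Rab acceptor family of vesicle traffic (AT2G40380; chromosome 2, 16865370 to 16865535 on TAIR10), had a fold of 3.95 in lineage 1 and 4.65 in lineage 2 and had its middle inside the gene. The region at MYB54, a transcription factor linked to secondary cell walls (AT1G73410; chromosome 1, 27603640 to 27603836), had folds of 4.09 and 3.74 and lay 323 bp from the gene. These regions were narrow, with peaks of 154 to 166 bp at PRA1.B2 and 143 to 197 bp at MYB54.

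At LCR10, of the cysteine-rich defensin-like family, the folds were 3.21 and 4.65 in lineages 1 and 2, and at EXO70H2, an exocyst subunit gene, they were 3.49 and 4.35. The region 9 bp from NAC015, which is also called BRN1 and encodes a root cap transcription factor, had folds of 2.61 and 5.16 (chromosome 1, 12073974 to 12074148). CYP704B1, a cytochrome P450 of pollen wall formation, had folds of 3.63 and 3.95 in a region 141 bp from the gene. In 10 of these 12 regions the higher fold was in lineage 2, the shallow library of generation 10, and the exceptions were MYB54 and SUN2.

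SUN2, which encodes a protein of the inner nuclear envelope, had the widest of these regions (chromosome 3, 3357600 to 3358192), with peaks of 593 bp in lineage 1 and 345 bp in lineage 2 and folds of 3.77 and 3.14. RD20, a drought-induced caleosin gene, was overlapped by a region with folds of 3.35 and 3.44 (chromosome 2, 14144660 to 14144844), the closest pair of values among the 12. Around WRKY70, a transcription factor gene of salicylic acid signalling, the generation 10 region lay 886 bp from the gene, with folds of 2.63 and 4.24. WRKY70 was not closed at generation 3: its strongest end peak had folds of 3.75 and 4.19 at generation 3 and 5.15 and 6.61 at generation 10, and those groups did not overlap. The remaining 3 named regions lay at DEG6, of the Deg protease family, at LLG2, which encodes a membrane-anchored protein related to LORELEI, and at ACR11, an ACT domain protein gene, with mean folds of 3.78, 3.39 and 3.35.

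The strongest regions of all in this direction had no gene with a symbol nearby. A region on chromosome 1 (18212861 to 18213150), with no gene within 1000 bp, had folds of 3.81 and 5.97. A region 113 bp from AT4G01245 (chromosome 4, 527338 to 527478) had folds of 6.07 and 3.46. Another, on chromosome 3 (16587457 to 16587614), had folds of 4.56 and 4.96 and was one of the 2 with a fold of at least 4 in both libraries.

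The first 12 regions with a named gene among those listed only at generation 3 had mean folds of 4.40 to 5.24. They were drawn from a larger class (604 against 281 regions), and the median of the mean folds was 2.74 in both classes. The region overlapping FER4, a ferritin gene whose product stores iron (AT2G40300; chromosome 2, 16833261 to 16833433), had folds of 5.87 in lineage 1 and 4.61 in lineage 2. The region inside RPE, which encodes the ribulose-phosphate epimerase of the Calvin cycle (AT5G61410; chromosome 5, 24685932 to 24686248), had folds of 4.76 and 5.52. Both were listed in neither generation 10 library. Of the peaks in those libraries, 3.91% in lineage 1 and 0.796% in lineage 2 had a fold under 2, so a weak signal could go unlisted.

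Other regions lay at genes of metabolism and transport. SWEET6, of the sugar transporter family, had folds of 4.32 and 4.68 in a region 808 bp from the gene. AAH, which encodes the allantoate amidohydrolase of purine breakdown, had folds of 5.77 and 3.88 in a region 635 bp away. BGLU15, a beta-glucosidase gene, had folds of 5.97 and 3.35 (chromosome 2, 18344038 to 18344374). They were put together after the values were seen, and no enrichment was tested.

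Genes with regulatory and other products followed. ATL8, of a family of RING-type ubiquitin ligases, had folds of 5.05 and 4.53 in the widest of these regions (585 bp). LHW, a transcription factor gene of vascular development, had folds of 5.77 and 3.24, and CAM1, a calmodulin gene, had folds of 5.77 and 3.20. ERF11, of the ethylene response factor family, was overlapped by a region with folds of 5.87 and 2.93 (chromosome 1, 9956949 to 9957336). The region 49 bp from RPA2, which encodes a subunit of the single-stranded DNA binding complex RPA (AT2G24490), had folds of 4.63 and 4.27. MEE15, named for arrested embryos in mutants, and EXPA19, an expansin locus that the gene table labels a transcribed pseudogene, had mean folds of 4.59 and 5.06. In 10 of the 12 regions the higher fold was in lineage 1, the shallow library of generation 3, and RPE and SWEET6 were the exceptions.

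The 3 strongest regions listed only at generation 3 had no gene within 1000 bp. Their folds were 5.25 and 7.39 on chromosome 3 (10899976 to 10900114), 5.25 and 6.36 on chromosome 1 (19691804 to 19692092), and 5.25 and 5.71 on chromosome 5 (15128561 to 15128787). All 24 regions named by a gene symbol kept their class under each of 5 alternatives. Of these, a −log10 q of at least 5 and a fold of at least 2 could not remove their peaks. The regions had been ranked by fold, and their lowest fold was 2.42 and their lowest −log10 q 6.66. The other alternatives were equal numbers of peaks, merging within 100 bp and a covered share of at least 25%. Over the whole classes, 160 of 281 and 366 of 604 regions kept their class at a −log10 q of at least 5.

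**Figure D2:**
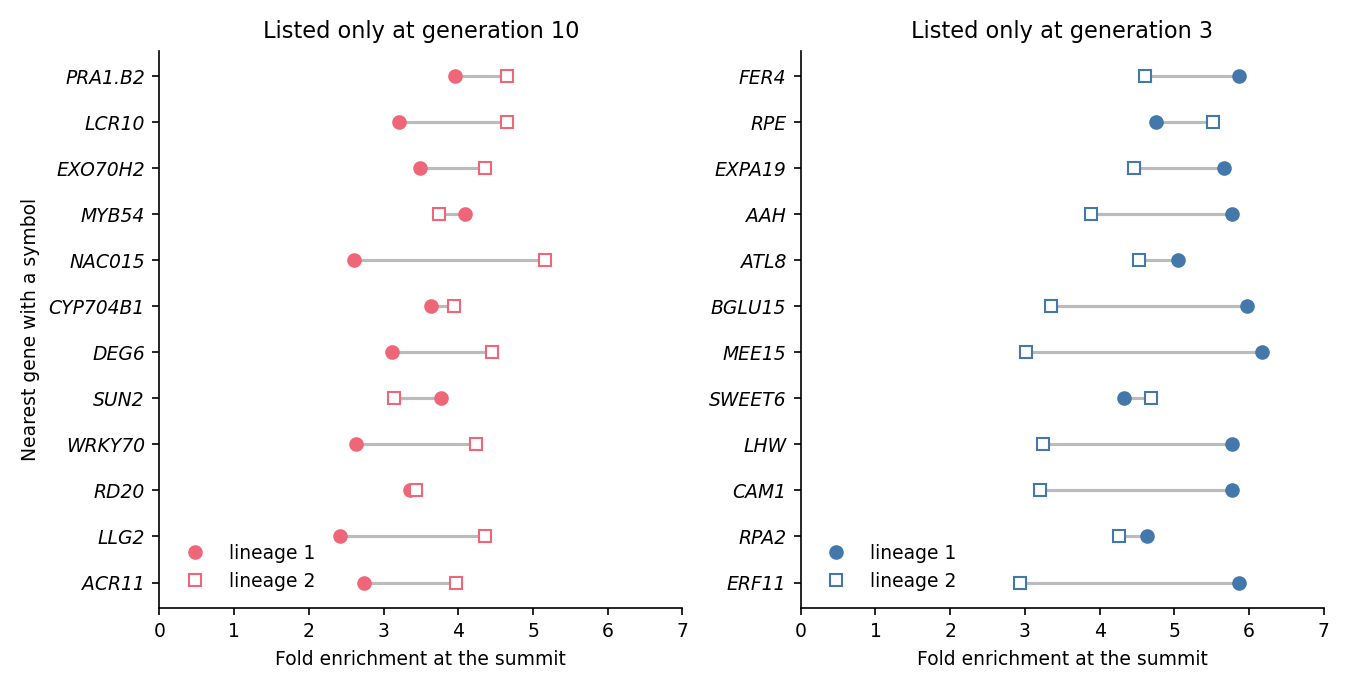
Summit fold enrichment (ratio, x axis) for the first 12 regions with a named gene in each direction; circles are lineage 1, squares lineage 2 and grey lines join them. Left, regions listed only at generation 10, with mean folds of 3.35 to 4.30; right, regions listed only at generation 3, with mean folds of 4.40 to 5.24.

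The classes differed in the share that lay outside genes, a difference that was not tested. Protein-coding genes and their ends (1000 bp outside to 200 bp inside, both ends) were missed by 131 of the 604 generation 3 regions (21.7%) and by 30 of the 281 generation 10 regions (10.7%). The share was 13.1% over all merged regions and 11.4% over regions of all 4 libraries. Among lineage-specific regions it was 12.1% in lineage 1 and 22.0% in lineage 2, so shares of this size also occurred between lineages. Gene ends held 72.0% of the generation 3 regions and 82.9% of the generation 10 regions. Windows of 500 kb with few genes, mostly around the centromeres, held 25 (4.14%) and 10 (3.56%), against 3.62% of all regions. Non-coding RNA genes overlapped 22 (3.64%) and 16 (5.69%), against 8.10% of all regions, and pseudogenes overlapped 1 (0.166%) and 5 (1.78%), against 1.29% of all regions.

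**Figure D3:**
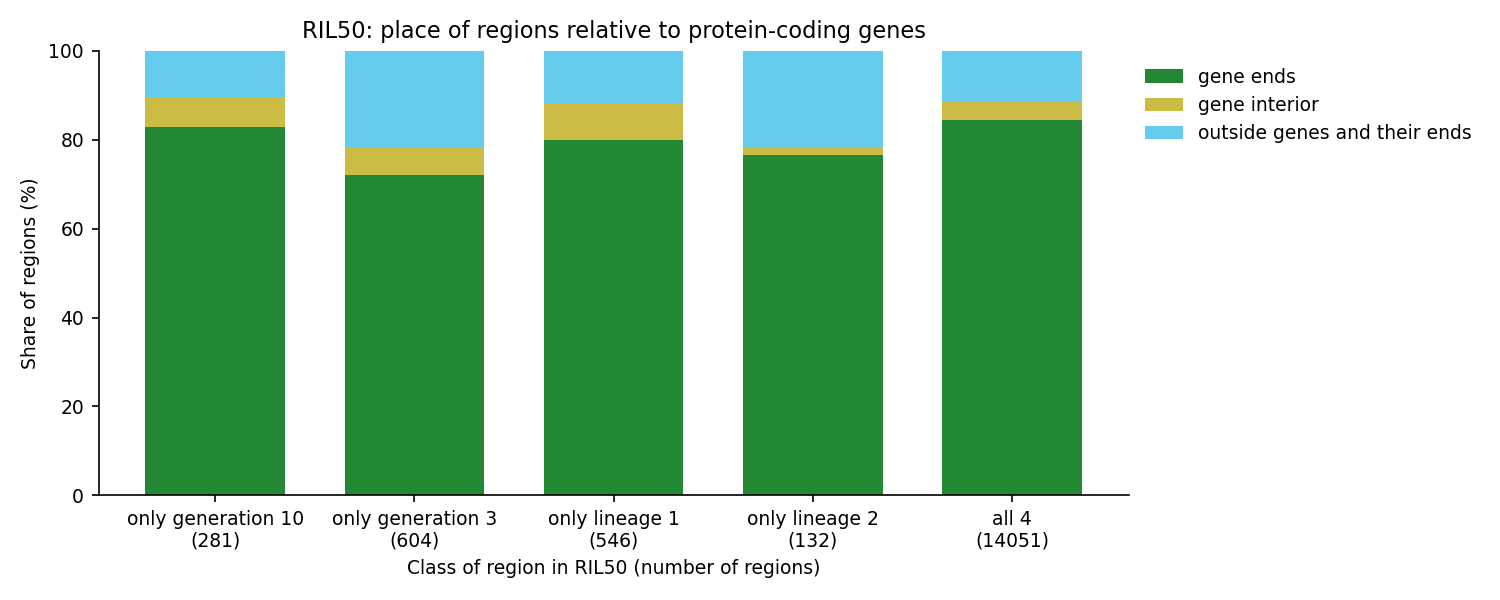
Share of regions (%) at ends of protein-coding genes, in gene interiors only, and outside both, for regions listed only at 1 generation, only in 1 lineage, or in all 4 RIL50 libraries; the number of regions is under each bar. The share outside protein-coding genes and their ends is 21.7% for generation 3 only and 10.7% for generation 10 only.

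Both classes were spread over all 5 chromosomes. The share of regions listed only at generation 10 ran from 1.05% on chromosome 4 to 1.59% on chromosome 2, and the share listed only at generation 3 from 2.48% on chromosome 2 to 3.04% on chromosome 5. On each chromosome the generation 3 regions were the more numerous, with 161 against 71 on chromosome 1, 87 against 56 on chromosome 2, 113 against 58 on chromosome 3, 91 against 35 on chromosome 4 and 152 against 61 on chromosome 5.

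Within the 14051 regions listed in all 4 libraries, few differed in fold between generations beyond the spread between libraries. Log2 folds of the strongest peak were centred on the median of each library and tested with limma, with Benjamini-Hochberg adjustment over all regions and a threshold of 0.05. Limma draws the variance of each region towards a value shared by all regions, weighted by prior degrees of freedom. These were 69.9, against 2 from the libraries, so SEs and p-values rest mostly on the spread pooled over regions. The fold rose at generation 10 in 5 regions (0.0356%) and fell in 16 (0.114%), with 510 and 493 regions at an unadjusted p under 0.05. After centring, both generation 10 values were above both generation 3 values in 18.8% of regions and below them in 15.1%. The SD of the change over regions was 0.242 on the log2 scale and the SD between lineages of one generation was 0.226. The calls, more than the sizes, rested on the scaling and on single libraries. Without centring 0 regions passed (59 and 250 at an unadjusted p under 0.05), without either generation 3 library 0 passed, without lineage 1 at generation 10 there were 7 higher and 14 lower, and without lineage 2 at generation 10 there were 4 higher and 3 lower. The change without centring was 1.39 against 1.46 on the log2 scale at YSL3 and -1.10 against -1.03 at VSP2, both described below. With the mean instead of the strongest peak, 1 region passed.

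The largest rise was inside YSL3, a transporter gene for metals bound to nicotianamine (AT5G53550; chromosome 5, 21756636 to 21757000). The fold was 4.82 and 3.28 at generation 3 and 8.91 and 12.1 at generation 10, and the groups did not overlap. The change was 1.46 ± 0.219 on the log2 scale (SE, limma adjusted p = 6.69e-05), or 2.75-fold relative to the median region. The peak there was also wider, with 232 and 256 bp at generation 3 and 359 and 355 bp at generation 10.

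The region 509 bp from YY1, a zinc-finger transcription factor gene (AT4G06634; chromosome 4, 3763152 to 3763732), had folds of 6.80 and 5.10 at generation 3 and 13.4 and 11.1 at generation 10. It rose by 1.12 ± 0.221 (SE, limma adjusted p = 0.0106) and lay in a gene-poor window. By AT2G12475, in another gene-poor window, folds of 6.08 and 2.74 were followed by 14.2 and 5.46, which overlap between generations before centring (1.18 ± 0.262, limma adjusted p = 0.0218). At GSK1, a kinase gene of the GSK3 family of brassinosteroid signalling, folds of 3.81 and 2.44 were followed by 4.28 and 7.49, a call that was lost with lineage as a block (limma adjusted p = 0.0381 without and 0.0714 with the replicate block). The fifth region, on chromosome 1 (7506428 to 7506663) with no gene within 1000 bp, had folds of 3.09 and 2.67, then 4.09 and 6.98.

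Of the 16 regions that fell, 7 were distal, away from protein-coding genes and from the ends of these. Such distal regions were 1 of the 5 that rose and 11.4% of the 14051 listed in all 4 libraries. The difference in share was not tested. The strongest decrease was in such a region on chromosome 4 (17087170 to 17087552), where the fold was 9.47 and 5.94 at generation 3 and 2.61 and 3.54 at generation 10 (-1.23 ± 0.220 on the log2 scale, SE, limma adjusted p = 0.00247). On chromosome 5, a region (15126275 to 15126780) with folds of 5.56 and 4.15, then 1.86 and 2.33, lay next to the region from 15128561 that was listed only at generation 3. Another distal region, on chromosome 2 (9701890 to 9702284), had folds of 5.77 and 4.27, then 1.81 and 2.83. In all 3, both generation 10 values were below both generation 3 values.

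Decreases near genes included those at ANNAT3, PEPC1 and VSP2. ANNAT3, of the annexin family of calcium-dependent membrane proteins, was overlapped by a region whose fold was 6.73 and 5.75 at generation 3 and 2.28 and 3.44 at generation 10 (chromosome 2, 16199223 to 16201016; limma adjusted p = 0.0140). Its peaks spanned 1794 and 1559 bp at generation 3 and 483 and 425 bp at generation 10. PEPC1, a phosphatase gene induced by phosphate starvation (AT1G17710; chromosome 1, 6092025 to 6093118), went from 8.44 and 10.4 to 3.67 and 5.06 (limma adjusted p = 0.0189). VSP2, a vegetative storage protein gene induced by jasmonate (AT5G24770; chromosome 5, 8501794 to 8502739), went from 8.96 and 6.28 to 3.44 and 3.54 (limma adjusted p = 0.0189). By AT2G23960 the folds were 11.02 and 7.16, then 4.19 and 3.85, and inside AT2G37980 they were 6.18 and 4.84, then 3.02 and 2.12. None of these groups overlapped between generations.

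A further 3 regions that fell were singled out after their values were seen. At PPCK2, which encodes a kinase of phosphoenolpyruvate carboxylase, the fold was 15.2 and 15.7 at generation 3 and 7.63 and 7.08 at generation 10 (limma adjusted p = 0.0218). At LOG5, of the family that releases active cytokinin, it was 16.1 and 10.9, then 5.63 and 6.88 (limma adjusted p = 0.0189). At BGLU15 the overlapping region (chromosome 2, 18344665 to 18345482) had folds of 7.00 and 4.68, then 2.61 and 2.83 (limma adjusted p = 0.0189). It lies beside the BGLU15 region listed only at generation 3, which has no value at generation 10. With lineage as a block, 4 of the 5 rises and 15 of the 16 decreases passed.

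**Figure D4:**
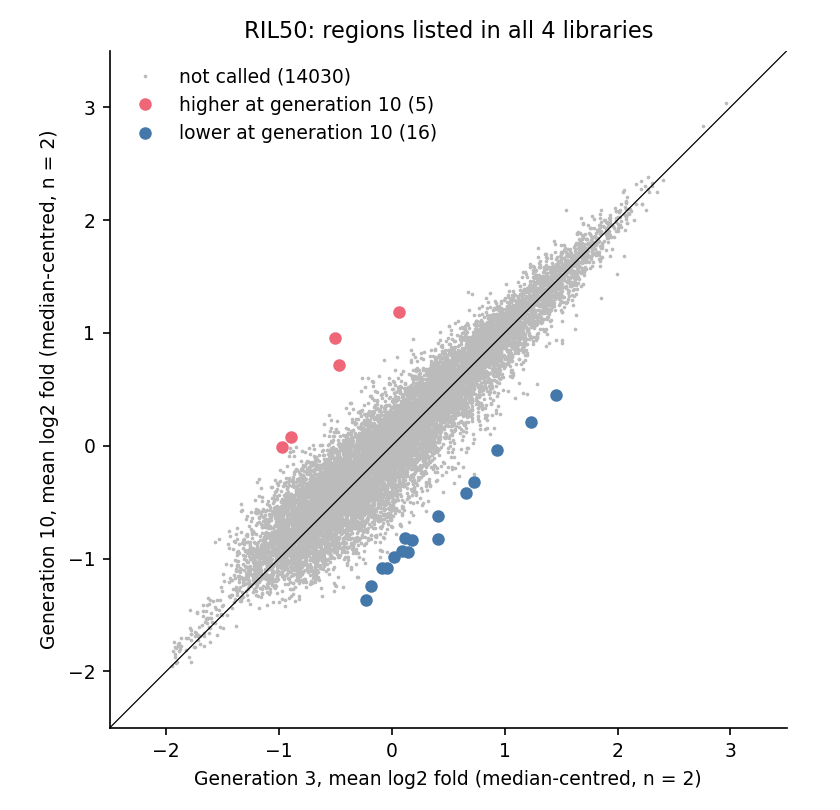
Mean log2 fold at generation 10 against generation 3, each the mean of 2 libraries after centring on the library median, for the 14051 regions listed in all 4 RIL50 libraries; the line marks equality. The 5 regions that rose are in red and the 16 that fell in blue.

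Width gave no call. Of the same 14051 regions, 0 passed limma on log2 width at an adjusted p under 0.05, with 393 wider and 565 narrower at an unadjusted p under 0.05. After centring, both generation 10 widths were above both generation 3 widths in 17.8% of regions and below them in 17.2%. Without lineage 1 at generation 3, 27 regions were called wider and 59 narrower, and without lineage 2 at generation 3, 47 and 69. The region overlapping PGK, a phosphoglycerate kinase gene (chromosome 1, 29923409 to 29924085), was 152 and 170 bp wide at generation 3 and 643 and 503 bp at generation 10 (limma adjusted p = 0.260). Its fold was nearly the same, with 2.56 and 2.38, then 2.40 and 2.22. Inside AT3G07320 the width was 147 and 135 bp, then 470 and 498 bp, and at the long non-coding RNA gene AT1G04137 it was 189 and 188 bp, then 501 and 441 bp. The largest statistics in the other direction were those of ANNAT3, given above, of AT1G59960, with 439 and 455 bp, then 160 and 135 bp, and of AT3G01305, with 626 and 481 bp, then 173 and 148 bp (limma adjusted p = 0.260 for each).

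Counted by gene, 179 of 27444 protein-coding genes (0.652%) had end peaks in both generation 10 libraries only, and 267 (0.973%) in both generation 3 libraries only. End peaks were present in all 4 libraries for 14524 genes (52.9%). With equal numbers of peaks per library the counts were 242 and 226. Without lineage 2 at generation 10 they were 610 and 413, without lineage 1 at generation 10 385 and 1120, without lineage 1 at generation 3 515 and 471, and without lineage 2 at generation 3 349 and 828.

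Marker genes were read against the labelled shoot tissue. Of 16 photosynthesis genes, 15 had end peaks in all 4 libraries. RBCS1A, a gene for the small subunit of Rubisco, had folds of 14.0 and 14.1 at generation 3 and 13.3 and 16.0 at generation 10. LHCB3, of the antenna of photosystem II, was the exception, with folds of 5.97 and 3.12 at generation 3, 3.95 in lineage 1 at generation 10 and no listed peak in lineage 2 at generation 10. All 8 housekeeping genes and 20 of 22 clock and light genes had end peaks throughout. The exceptions were COP1, a repressor of light signalling, with none in lineage 2 at generation 10, and ZTL, a blue light receptor of the clock, with a peak in lineage 1 at generation 10 alone (fold 2.56). Of 10 root identity genes, 2 (CASP1 and EXPA7) had end peaks in all 4 libraries, while the 4 without any were BRN2, RHD6, PLT2 and PLT1. The number with an end peak was 4 and 3 at generation 3 and 5 and 4 at generation 10, and NAC015 was the member specific to generation 10. The deposited folds of both root genes listed throughout were higher at generation 10. They were 4.01 and 3.504, then 4.83 and 4.96 at CASP1, and 3.21 and 2.59, then 3.66 and 3.74 at EXPA7. Among all 14524 genes with end peaks throughout, both generation 10 folds were above in 5.96% and below in 12.7%. COBL9 and SMB went the other way. COBL9 had 4.46, then 2.33, in lineage 1 alone, and SMB had a peak only in lineage 1 at generation 3 (fold 2.06). WOX5 had 5.03 in lineage 2 alone at generation 3, then 3.86 and 4.25. The part of root cells in the generation differences was not tested. Of 6 shoot meristem and stomata genes, 2 had end peaks throughout (SPCH and MUTE, regulators of stomatal development) and 0 were specific to a generation.

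The lists of CG methylation maintenance (7 genes) and demethylation (5 genes) held 0 members specific to a generation, and at the shares of all genes, 0.652% and 0.973%, lists of this size would seldom hold one. MET1, the CG maintenance methyltransferase, had folds of 7.00 and 5.14 at generation 3 and 6.79 and 6.98 at generation 10. DDM1 had folds of 7.50 and 4.80, then 6.37 and 8.60. The ranges of both genes overlapped between generations, and VIM1, VIM2, VIM3, VIM4 and VIM5 had no end peak in any of the 4 libraries. ROS1 and DME, which remove methylated cytosine, had end peaks in all 4. The fold at ROS1 was 13.9 and 8.61 at generation 3 and 7.68 and 10.0 at generation 10, and at DME it was 19.2 and 15.6, then 13.7 and 14.4. These deposited folds overlapped between generations at ROS1, while at DME both generation 10 values were below both generation 3 values. The same held for 12.7% of all 14524 genes with end peaks throughout, and the fold at DME was not tested.

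RNA-directed DNA methylation, in which small RNAs guide the methyltransferase DRM2, held 1 gene specific to a generation. KTF1, whose SPT5-like product binds ARGONAUTE4 and the transcripts it targets (AT5G04290), had a region at a gene end (chromosome 5, 1202955 to 1203429) with folds of 3.40 and 2.59 at generation 3 and no listed peak at generation 10. In RIL149 the gene had end peaks in both generation 10 libraries and in neither generation 3 library, but not in the same region. The region above was listed there only in lineage 1 at generation 10. The lineage 2 peak was in another region at a gene end (1195719 to 1195948). Of the 19 genes of this list, 9 had end peaks in all 4 libraries, 7 had none, 0 were specific to generation 10 and 1 to generation 3. AGO6 had the strongest peaks of the list, with folds of 18.2 and 14.7, then 13.4 and 18.3. NRPD1A, which encodes the largest subunit of RNA polymerase IV, had folds of 3.81 and 3.31, then 2.65 in lineage 1 and no listed peak in lineage 2. In the lists of non-CG methylation (6 genes), demethylation (5) and histone variants (10), 0 members were specific to a generation. CMT2, of non-CG methylation, DML2, a demethylase gene, and the histone gene HTA12 had the same pattern, absent from lineage 2 at generation 10 alone. Of the 128 genes in all 11 lists, KTF1 and NAC015 were the members specific to a generation, which is 1.56%, near the 1.63% of all protein-coding genes.

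Among the 19 stress and defence genes, 18 had end peaks in all 4 libraries and ERF1 had none. MYC2, the central transcription factor of jasmonate signalling, had folds of 10.4 and 10.4 at generation 3 and 6.84 and 9.11 at generation 10. WRKY18 had folds of 9.06 and 8.11, then 5.77 and 6.68, and WRKY53 had 5.65 and 5.03, then 3.95 and 4.76. In these 3 genes the generation 10 values were below the generation 3 values, and in WRKY70 they were above, while the other 14 overlapped. Among all 14524 genes with end peaks in all 4 libraries, the generation 10 folds were below in 12.7% and above in 5.96%. All these gene folds are as deposited, without the centring used for shared regions, so the shares cannot be set beside those of shared regions. These 4 genes were picked after their values were seen, and their folds were not tested at the level of genes.

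RIL149 showed the opposite balance. With the same rule, 2337 of its 22409 regions (10.4%) were listed only at generation 10 and 19 (0.0848%) only at generation 3. Its generation 3 libraries held 17132 and 13186 nuclear peaks, against 19542 and 21540 at generation 10. The change in peak number was -896 in RIL50 and 5382 in RIL149, a difference of -6278 that did not pass a two-sided exact permutation of generation within lines (p = 0.111, adjusted over 4 measures p = 0.333, where the smallest possible p is 0.0556). By gene, 1579 (5.75%) had end peaks only at generation 10 in RIL149 and 1 (0.00364%) only at generation 3. Of the 179 genes specific to generation 10 in RIL50, 65 were among the former, and of the 267 specific to generation 3, 0 were the latter. Covered length changed by -0.603 Mb and 2.18 Mb (exact permutation p = 0.167).

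Generation-specific regions of RIL50 were listed in RIL149 at lower shares than all RIL50 regions, of which 72.2% and 55.6% overlapped a peak at generation 3 (lineages 1 and 2) and 81.0% and 85.9% at generation 10. Of the 281 RIL50 regions listed only at generation 10, 26.0% and 7.83% overlapped a peak in the generation 3 libraries of RIL149 (lineages 1 and 2), and 54.4% and 75.1% in its generation 10 libraries. Of the 604 listed only at generation 3, the shares were 39.6% and 16.4% at generation 3 and 54.6% and 58.4% at generation 10. Both classes had higher shares in the RIL149 libraries of generation 10, as had all regions and the 546 regions found only in RIL50 lineage 1 (30.8%, 8.24%, 52.9% and 70.0% in the same order).

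A pattern shared by both lines was found for 81 regions listed only at generation 10, which are 28.8% of the 281 in RIL50 and 4.38% of the 1848 RIL50 regions that had this pattern in RIL149. The 2337 given above were counted in regions merged from the RIL149 lists alone. Among all 21765 regions, 8.49% had it in RIL149, and among the regions found only in RIL50 lineage 1 or only in lineage 2 it was 22.0% and 22.7%. For the regions listed only at generation 3 in RIL50, the RIL149 pattern was generation 10 only in 93 (15.4%) and generation 3 only in 4. The 4 are 0.662% of the 604 and 36.4% of the 11 RIL50 regions that had that pattern in RIL149 (0.0505% of all regions). They lay at ACR8, BBD1 and AT4G36640 and at a site on chromosome 5 (21671763 to 21672151) with no gene within 1000 bp. FER4, the strongest generation 3 region with a named gene in RIL50, was listed in both generation 10 libraries and neither generation 3 library of RIL149. Of the other named generation 3 regions, RPE, BGLU15, SWEET6 and CAM1 were listed in all 4 RIL149 libraries, and RPA2 and ERF11 in none.

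**Figure D5:**
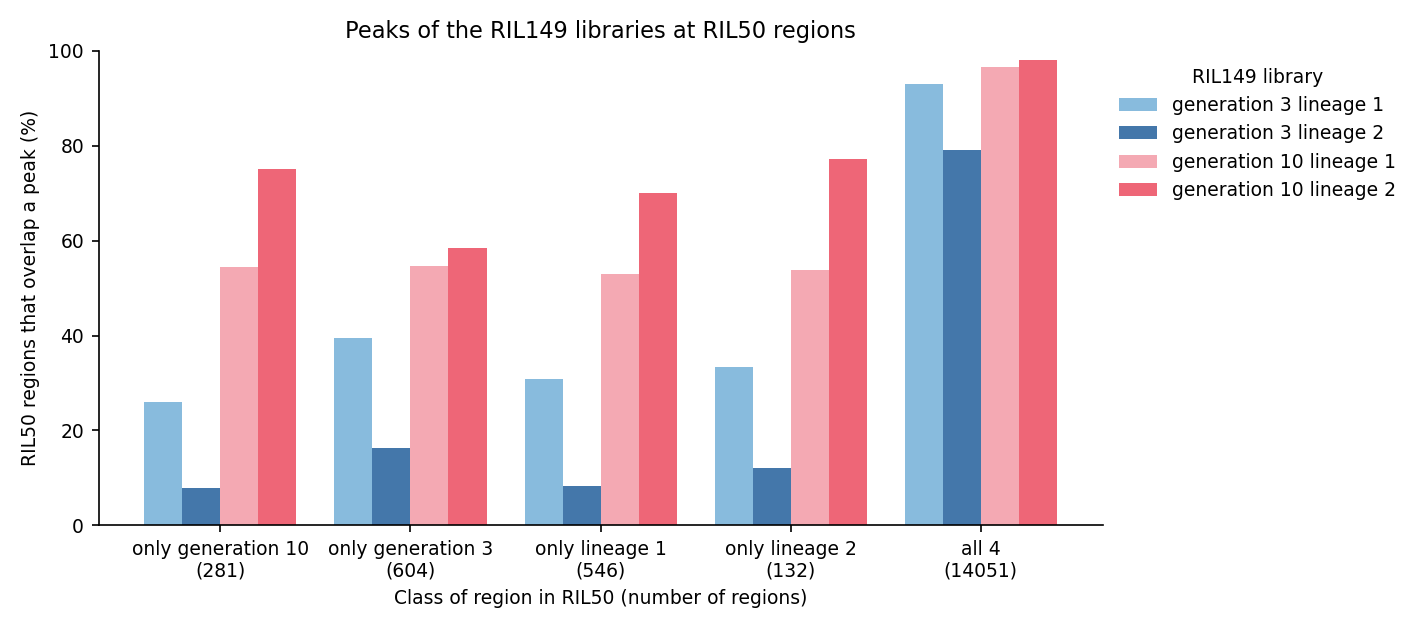
Share (%) of RIL50 regions that overlap a peak in each RIL149 library, by the class of the region in RIL50 (number of regions under each group of bars). For regions listed only at generation 3 in RIL50 the shares are 39.6%, 16.4%, 54.6% and 58.4%, and for regions of all 4 RIL50 libraries they are 79.2% to 98.0%.

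The difference between lines in the generation change was tested in the 10916 regions listed in all 8 libraries. In fold, 1 region passed the limma interaction term (0.00916%), the one inside YSL3, where the change was 1.75 ± 0.263 higher in RIL50 (log2, SE, limma adjusted p = 0.0120). Its fold in RIL149 was 6.06 and 5.09 at generation 3 and 5.57 and 6.90 at generation 10, with overlapping groups. In width, 1 region passed (0.00916%), the one at PGK, with 313 and 230 bp, then 233 and 260 bp in RIL149 (2.37 ± 0.219 on the log2 scale, limma adjusted p = 0.0208). With lineage as a block, 11 regions passed higher in RIL50 and 4 lower in fold, and 0 in width, where the smallest limma adjusted p was 0.0864. Without centring, 0 passed in either.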

How the data were processed

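Tagmentation of nuclei lasted 30 min at 37 °C, and reads were 150 bp and paired-end, per the labels' protocols. Listed tools, per the submitters' processing notes, are MACS2 2.2.9.1, BWA 0.7.17, Trimmomatic 0.39 and Picard, and the build is TAIR10. Any Tn5 offset correction and how organelle reads were treated is not given in the sources used here. Reads of Ler and Cvi alleles were placed on the Col-0 reference, which can weaken or remove peaks.

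The deposited files are narrowPeak lists, 1 per library, so peaks were called per library. The deposited fold column is a ratio of the summit to the local background. Significance (p and q) was deposited as −log10 values, and the deposited score is a whole number made from q. All RIL50 peaks have a −log10 q of at least 1.34. Fold scales with depth and background, so levels across libraries are approximate. The background pileup was solved from fold and p with the Poisson relation, which gave a solution for 100% of the peaks it was applied to.

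Groups came from the labels; generation numbers in the names of the lists are lower by 1. Lineage numbers mark shared descent and so pair the libraries, and the correlation of deviations from generation means was 0.0306 for fold and -0.0180 for width. Fits used limma 3.58.1 in R 4.3.3 on log2 values with no pseudocount. On simulated data with 200 of 14051 regions changed by 1 on the log2 scale, 75.0% were recovered for fold with 9 false calls, and 50.5% for width with 8. Every simulated region had the same pooled SD (0.226 for fold and 0.274 for width). In the data the spread differed between regions, more so for width, so these shares do not give the recovery in the data. Planted presence patterns and pileups were all recovered in a separate simulation.

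Gene names and neighbours were read from RefSeq (TAIR10.1), a table without strand. In 25 of 25 bins of 5 Mb, peak summits matched gene ends best within 250 bp of no offset. All 128 list genes matched by locus. Gene-poor windows are the 40 of 240 windows of 500 kb whose number of protein-coding genes is under 50% of the window median (130.5). Named regions are the first 12 per direction by mean fold with a gene symbol within 1000 bp and the first 3 without. In shared regions they are up to 8 called per direction and, where none passed, the 3 per direction with the largest statistic. A gene with a symbol within 1000 bp was named before any gene known only by its locus identifier. A nearer or overlapping gene without a symbol can therefore go unnamed. Lists and rules were chosen with earlier results of these data known.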

Additional observations from a re-analysis of the deposited data

Results flagged for a closer look

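The change in nuclear peak number from generation 3 to 10 went in opposite directions in the lines: -297 and -1495 in the lineages of RIL50, and 2410 and 8354 in those of RIL149. The difference of the mean changes was -6278, and its exact permutation p of 0.111 did not pass. In the same libraries the background pileup went from 8.71 to 20.5 and from 25.3 to 8.88 in RIL50, and from 11.8 to 13.9 and from 12.5 to 20.6 in RIL149, and the part of depth in the difference was not tested.

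The fold inside YSL3 rose more in RIL50 than in RIL149, by 1.75 on the log2 scale (limma interaction, adjusted p = 0.0120), and was higher at generation 10 in both RIL50 lineages. The width of the region at PGK differed in the same way by 2.37 on the log2 scale (limma adjusted p = 0.0208), with both RIL50 lineages wider at generation 10. The PGK call was lost with lineage as a block (smallest limma adjusted p = 0.0864), and both calls were lost without centring.

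Peaks on the organelle genomes were not used in the comparisons. Mitochondrial peaks numbered 218 and 242 at generation 3 and 219 and 235 at generation 10 in RIL50, and chloroplast peaks 79 and 78, then 76 and 82. The labels give no control library for these.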

How the results depend on the processing

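The small number of libraries per generation sets the limits. Leaving out a library changed the sign of library summaries: the peak number difference ranged from -1868 to 76, covered length from -1.55 to 0.346 Mb, median width from -26.5 to 13.5 bp and median fold from -0.611 to 0.482. Under the same choice, regions listed only at generation 10 ranged from 601 to 1257 and only at generation 3 from 869 to 2065, and genes from 349 to 610 and from 413 to 1120; the rule is looser with fewer libraries. Fold calls ranged from 0 to 7 higher and from 0 to 14 lower, and width calls from 0 to 47 and from 0 to 69; with 1 library left in a group, its spread is assumed equal to the other group's. Without centring there were 0 fold calls higher and 0 lower, and 0 for the interaction in fold and in width. All 8 libraries in one fit gave 2 and 5 for fold and 1 and 5 for width; the mean of peaks gave 1 and 0; a −log10 q of at least 5 gave 1 narrower region. With the replicate block (lineage), fold calls were 4 and 15, width calls 0 and 0, and the interaction gave 11 and 4 for fold and 0 for width. The prior degrees of freedom of limma moved as well. Without lineage 1 or 2 at generation 3 they went from 69.9 to 10.1 and 9.71 for fold, and from 3.81 to infinite for width. Without lineage 1 or 2 at generation 10 they became infinite for fold and were 1.72 and 1.64 for width. The cause of the shifts in calls was not tested. Jaccard indices and the other counts of specific regions and genes stayed within 1.5 times of the reported values under the stricter q, fold, merging and window settings. Of the 281 and 604 specific regions, 160 and 366 kept their class at a −log10 q of at least 5, and 176 and 268 with equal numbers of peaks.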
